A study of Mus musculus with 24 samples.

Results

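The promoters described here belong to the ligands and receptors that guide axons and migrating cells: semaphorins with their neuropilin and plexin receptors, ephrins with Eph receptors, Slits with Robo receptors, and netrins with Dcc and Unc5 receptors. Members were captured restriction fragments (baits) that held, or lay within 1 kb of, an annotated autosomal end of a gene whose symbol begins with one of these family names. This rule took 71 of the 22203 baits. It matched 74 genes, of which 3 on the X chromosome were left out by the rule and 64 of the 71 autosomal genes had at least 1 bait. Ntn1, Ntng2, Robo1, Robo2, Sema6a, Slit1 and Unc5a had none. Of the 71 baits, 63 had the gene end inside them, 55 lay at a gene start, 8 lay only at a far (3′) end, and for 8 the table gave no strand. The end belonged to a fragment shared with another protein-coding gene for 19 baits, so their contacts cannot be assigned to 1 gene. The symbol rule also took Unc50, Unc5cl and the long noncoding Plxna4os1, which are not guidance receptors.

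The libraries are promoter capture Hi-C from mouse cranial neural crest cells, an assay that enriches for DNA ligated to promoter fragments after cross-linking and cutting with HindIII. Conditional knockouts labelled Ezh2cKO at E11.5 (the number gives the day of embryonic development) came from 4 tissues, labelled FNP (frontonasal process), Mx (maxillary process), Md (mandibular process) and PA2 (pharyngeal arch 2). The deletion Hoxa2PTE-36kb-del came from Md and PA2, and Hoxa2PTE-42kb-del from PA2 only. Wild-type (WT) libraries came from the same 4 tissues at E11.5 and from crest progenitors at E8.5. Each of the 12 groups held 2 libraries, 24 in all. WT and Ezh2cKO crest was sorted by fluorescence, and the labels name Wnt1::Cre;ROSARFP embryos for the WT sort. The sources used here do not give the driver of the Ezh2 knockout, the animals pooled per library or whether deletion cells were sorted. Ezh2 is the catalytic subunit of Polycomb repressive complex 2, which methylates histone H3 on lysine 27.

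Semaphorins and Slits mostly act as repellents, ephrins signal by contact between cells that carry the ligand and cells that carry the Eph receptor, and netrins attract through Dcc or repel through Unc5. The same molecules steer cells other than axons: semaphorin-neuropilin and ephrin-Eph signalling keep streams of cranial neural crest apart on their way to the pharyngeal arches. Many of their genes sit beside long stretches without other genes, where regulatory elements can lie far from the promoter. What was measured here was contact, not expression. A call means that a bait and another fragment were ligated more often than the caller's background for that library allowed, and the number of calls of a bait is a count of such partners.

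Promoter sequences of 4 members are printed here, each a short part of its captured fragment. They are those of the ligand genes Efnb2, Sema5b and Sema3g and of the receptor gene Robo3, whose contact counts differed between the groups below. RefSeq promoters of build GRCm38.p6 run from 250 bases before to 50 bases after the gene start, and the capitals mark each CG dinucleotide, the site of DNA methylation that is dense in CpG islands. They lie at chr8:8661193-8661492 (minus strand), chr16:35541112-35541411 (plus strand), chr14:31217623-31217922 (plus strand) and chr9:37433126-37433425 (minus strand).
Efnb2: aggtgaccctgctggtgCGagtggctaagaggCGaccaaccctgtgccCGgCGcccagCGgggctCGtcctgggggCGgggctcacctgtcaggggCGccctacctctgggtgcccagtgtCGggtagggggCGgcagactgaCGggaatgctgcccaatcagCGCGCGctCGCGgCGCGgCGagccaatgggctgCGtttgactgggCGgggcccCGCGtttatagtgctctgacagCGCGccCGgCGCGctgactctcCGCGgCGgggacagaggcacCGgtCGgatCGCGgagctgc
Sema5b: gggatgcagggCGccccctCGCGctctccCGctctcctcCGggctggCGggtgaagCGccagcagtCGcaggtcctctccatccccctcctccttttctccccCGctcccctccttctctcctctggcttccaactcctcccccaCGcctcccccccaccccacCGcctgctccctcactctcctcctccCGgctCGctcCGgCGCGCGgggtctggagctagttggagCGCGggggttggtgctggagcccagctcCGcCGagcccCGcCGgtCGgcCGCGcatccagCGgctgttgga
Sema3g: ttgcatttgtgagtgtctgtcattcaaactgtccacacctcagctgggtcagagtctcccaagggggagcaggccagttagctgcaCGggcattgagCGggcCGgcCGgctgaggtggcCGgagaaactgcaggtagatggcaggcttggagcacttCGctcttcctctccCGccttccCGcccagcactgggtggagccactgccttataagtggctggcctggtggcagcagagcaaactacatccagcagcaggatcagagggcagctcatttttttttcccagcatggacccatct
Robo3: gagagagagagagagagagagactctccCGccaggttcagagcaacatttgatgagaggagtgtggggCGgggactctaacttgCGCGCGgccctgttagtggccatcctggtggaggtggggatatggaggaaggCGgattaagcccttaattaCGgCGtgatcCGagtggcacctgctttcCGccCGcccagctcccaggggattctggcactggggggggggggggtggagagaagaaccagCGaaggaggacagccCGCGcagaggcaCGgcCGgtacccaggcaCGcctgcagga
CG occurred 35 times in the Efnb2 promoter, 27 times in Sema5b, 17 times in Robo3 and 8 times in Sema3g. RefSeq starts of 52 member genes, 59 promoters in all, lay inside a member bait. Their median was 23 CG per 300 bases, with a range of 2 to 56, against a median of 13 over all 21262 promoters of protein-coding genes in the same table. At least 20 CG were present in 37 of these 59 promoters (62.7%) and in 35.9% of all promoters. As CG reads the same on both strands, the count does not depend on orientation.

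Per library, 142284 to 190343 interactions were called, 95.65% to 97.06% of them within a chromosome (cis). The 71 baits together carried 0.547% ± 0.021 of all cis calls in Ezh2cKO libraries (SD, n = 8), 0.517% ± 0.020 in 36kb deletion libraries (n = 4) and 0.539% ± 0.007 in 42kb deletion libraries (n = 2). In WT they carried 0.528% ± 0.020 at E11.5 (n = 8) and 0.414% ± 0.010 at E8.5 (n = 2). The lowest share at E11.5 in WT was 0.497%, above the highest at E8.5, 0.421%. The median distance of a member call was 523 kb ± 29.1 at E11.5 in WT (n = 8) and 320 kb ± 2.0 at E8.5 (n = 2), whereas over all cis calls it was 459 kb ± 15.3 and 440 kb ± 9.0. Calls over 10 Mb made up 7.9% to 9.26% of cis calls in E11.5 WT libraries and 14.2% to 14.67% in E8.5 libraries. Their part in the stage results was not tested. In a population of cells, a contact made in fewer cells and one made less often in each cell cannot be told apart. Pairs of baits are listed with the higher coordinate first in all WT and Ezh2cKO libraries, whereas in the 6 deletion libraries 48.71% to 49.24% have the lower first. A further 1840 cis interactions were called in all 6 deletion libraries and in 0 of the other 18, and 93.2% of them join 2 baits. Each member bait called in a deletion below is therefore also given for partners that are not baits. The knockout could not be checked at Ezh2 itself, whose bait had 1 to 7 calls in Ezh2cKO and 2 to 7 in E11.5 WT libraries.

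Levels ranged widely among the members. A test needed 5 or more calls on average over the 24 libraries, which 48 baits had, and their means ran from 5.21 (Epha4) to 52.92 (Efnb3, encoding ephrin-B3). The other 23, with means of 0.46 to 4.67 and at most 12 calls in any library, had too few calls to test, among them Dcc, Plxnd1, Plxna2, Epha1, Epha5, Ntn4, Sema3e, Unc5d and both Efna1 baits. Just outside the minimum was Sema6c (4.67), just inside Epha4 (5.21). The heat map of levels shows that Efnb3, Efnb2, Sema6d, Plxnb2, Sema5a and Slit3 were among the brightest rows in E11.5 libraries.

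**Figure D1:**
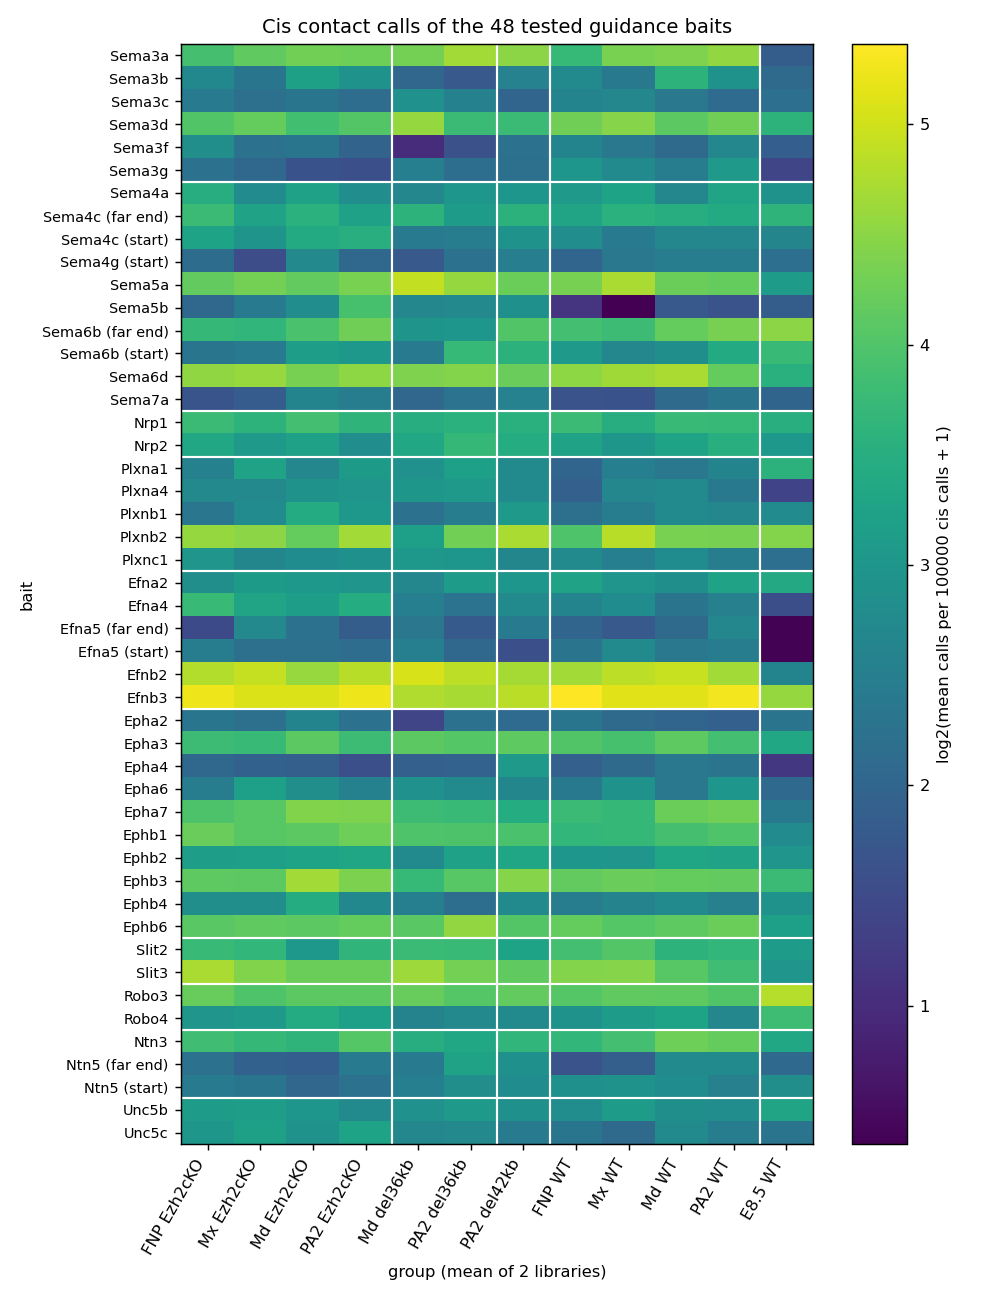
Cis calls of the 48 tested baits (rows, grouped by family) in the 12 groups (columns), coloured by log2 of the mean calls per 100000 cis calls of the library plus 1, n = 2 libraries per cell. The E8.5 column is darker for Sema3a, Efnb2 and both Efna5 baits and brighter for Robo3 than the 4 E11.5 WT columns.

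The comparison of E11.5 crest with E8.5 progenitors set crest of the face against the progenitor stage. Of the tested baits, 5 of 6 at ephrin genes (2 of these 5 at Efna5) and 5 of 10 at Eph receptor genes had more partners at E11.5. So had 3 of 6 at secreted and 2 of 10 at membrane semaphorin genes. Relative to the library total, 17 of the 48 tested baits (35.4%) were higher at E11.5, against 18.6% of all 10344 baits tested, and 3 were lower (6.2%), against 10.3% (limma, Benjamini-Hochberg adjusted p under 0.05 over all baits). The members' median log2 change was 0.35, and that of all baits was 0.03. Ligand baits were higher in 11 of 27 tested and lower in 0, while receptor baits were higher in 6 of 21 and lower in 3. The minimum for a test was a mean over all 24 libraries, of which only 2 were from E8.5. It therefore let in baits with calls mainly at E11.5 more easily than baits with calls mainly at E8.5, such as Plxnd1. This holds for members and for all baits, so the counts of higher and lower baits cannot be set against each other.

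Efnb2 encodes ephrin-B2, a transmembrane ligand known from frog embryos to keep crest streams apart. Its bait (chr8:8658298-8664656) had 36, 45 and 50 calls as lowest, median and highest of the 8 E11.5 WT libraries, against 7 and 9 at E8.5. No E11.5 library came near the E8.5 values, and the log2 change was 2.29 ± 0.14 (SE; adjusted p = 2.73e-10). Sema3a encodes a secreted repellent of axons and crest cells that binds neuropilin-1. Its bait (chr5:13125513-13129037, within 1 kb of the gene's annotated start) had 19, 33.5 and 37 calls at E11.5, against 4 and 4 at E8.5 (log2 change 2.64 ± 0.20, adjusted p = 3.08e-09). Every tissue of E11.5 WT lay above both progenitor libraries for these 2 genes.

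Among the other ephrins, the start of Efna5, the gene of a membrane-anchored ephrin-A ligand, had 5, 8 and 11 calls at E11.5 and 0 and 1 at E8.5 (log2 change 3.07 ± 0.47, adjusted p = 4.76e-05). The far-end bait of the same gene, 279.2 kb away, had 3, 5.5 and 10 calls at E11.5 and 0 and 1 at E8.5 (2.67 ± 0.50, adjusted p = 0.000389). The 1 call of each bait at E8.5 lay 279.2 kb away, so it is 1 contact between the 2 baits, counted at both. These are therefore not 2 separate results. So few calls at E8.5 leave the size of these 2 changes uncertain, since the fitted value depends on the 0.5 added to each count. Efna4 and Efnb3 also passed, with log2 changes of 1.19 and 0.70. The Efnb3 bait is shared with Wrap53, and no strand was given for Efnb3. Thus 5 of the 6 tested ephrin baits were higher, 2 of them at the same gene, Efna5. The remaining one, Efna2, had 10 to 17 calls at E11.5 and 14 and 15 at E8.5.

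Of the 10 tested Eph receptor baits, 5 were higher. Epha7 had 13, 27 and 36 calls at E11.5, against 9 and 4 at E8.5 (log2 change 1.81 ± 0.29, adjusted p = 8.04e-05). Ephb1, Ephb6 and Epha3 were higher by 1.10, 1.03 and 0.68 on the log2 scale. Epha4, a receptor for both ephrin classes, had 4, 5 and 9 calls at E11.5, against 0 and 4 at E8.5. Its log2 change of 1.92 ± 0.55 (adjusted p = 0.0118) fell to 0.37 (adjusted p = 0.694) without E8.5 replicate 1, the library at 0. Ephb2 (9 to 17 calls at E11.5, against 10 and 11 at E8.5) and Ephb3, receptors of ephrin-B ligands, did not pass. For Ephb3, E11.5 WT libraries had 25 to 33 calls and E8.5 libraries 16 and 23, a log2 change of 0.44 with adjusted p = 0.0976.

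Among semaphorins, Sema3g, Sema5a, Sema6d and Sema3d were higher beside Sema3a. Sema5a, which encodes a transmembrane semaphorin with thrombospondin repeats, had 26, 32 and 50 calls at E11.5, against 12 and 12 at E8.5 (log2 change 1.29 ± 0.21, adjusted p = 0.000103). Its bait also holds the starts or ends of the noncoding Snhg18 and Snord123. Sema3g had 7, 9.5 and 14 calls at E11.5, against 5 and 0 at E8.5, and its log2 change of 2.53 (adjusted p = 0.00153) was 0.77 (adjusted p = 0.271) without E8.5 replicate 2. Sema3c, with 5 to 9 calls at E11.5 and 5 and 6 at E8.5, and Sema3f, with 5 to 10 and with 5 and 3, did not pass (adjusted p = 0.504 and 0.341). The neuropilin baits did not pass either: Nrp1 had 12 to 26 calls at E11.5 and 12 and 20 at E8.5, and Nrp2 had 7 to 19 and then 12 and 10.

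Slit3, a ligand of Robo receptors, had 21, 28.5 and 40 calls at E11.5, against 10 and 11 at E8.5 (log2 change 1.29 ± 0.19, adjusted p = 2.58e-05). Slit2 had 17 to 27 calls at E11.5 and 10 and 14 at E8.5. The change of Slit2, 0.70 on the log2 scale, missed the threshold (adjusted p = 0.0613). It passed with partners that are not baits (adjusted p = 0.0463), with calls that list its bait first (0.0475) and with only the compared groups in the fit (0.0158).

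Against this direction, the baits of 2 Robo receptors and of Plxna1 were lower at E11.5. Robo3, the receptor known for its role in commissural axon crossing, had 25, 25.5 and 31 calls at E11.5, against 47 and 36 at E8.5 (log2 change -0.74 ± 0.16, adjusted p = 0.0014). Its neighbour Robo4, known from endothelium, had 9, 12.5 and 15 calls at E11.5 and 23 and 17 at E8.5 (-0.85 ± 0.24, adjusted p = 0.0121). Plxna1, a co-receptor with neuropilins for class 3 semaphorins, had 4, 7 and 11 calls at E11.5 and 13 and 21 at E8.5 (-1.33 ± 0.28, adjusted p = 0.00112). The Plxna1 bait is shared with the protein-coding gene Gm40415, and no strand was given for Plxna1. The groups did not overlap for these 3 baits, which were named because they passed. With only 2 libraries at E8.5 this adds little, as it also held for baits that did not pass, such as Unc5b. Plxna4, another plexin of this class, went the other way, with 4, 8.5 and 10 calls at E11.5 and 1 and 4 at E8.5 (1.45 ± 0.33, adjusted p = 0.00207). The endothelial markers' 3 baits summed to 20 to 47 calls at E11.5 and 7 to 10 at E8.5, and the 6 blood marker baits to 21 to 35 and 45 to 61, with no bait of either list at 0 in every E8.5 library. The 6 baits of crest and facial mesenchyme markers summed to 92 to 135 calls at E11.5 and 63 to 66 at E8.5. These are contacts and not RNA, so they check no cell type, and their part in the results was not tested.

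Plxnd1, the receptor of Sema3e, was below the minimum for a test. It had 0 to 6 calls at E11.5 in WT and 10 and 10 at E8.5. Unc5b and Unc5c, receptors for netrin repulsion, had 9 to 13 and 5 to 11 calls at E11.5, against 14 and 13 and against 6 and 6 at E8.5, and neither passed (adjusted p = 0.145 and 0.855). Dcc had 0 to 2 calls at E11.5 and 3 and 2 at E8.5, from a bait within 1 kb of the gene's end.

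**Figure D2:**
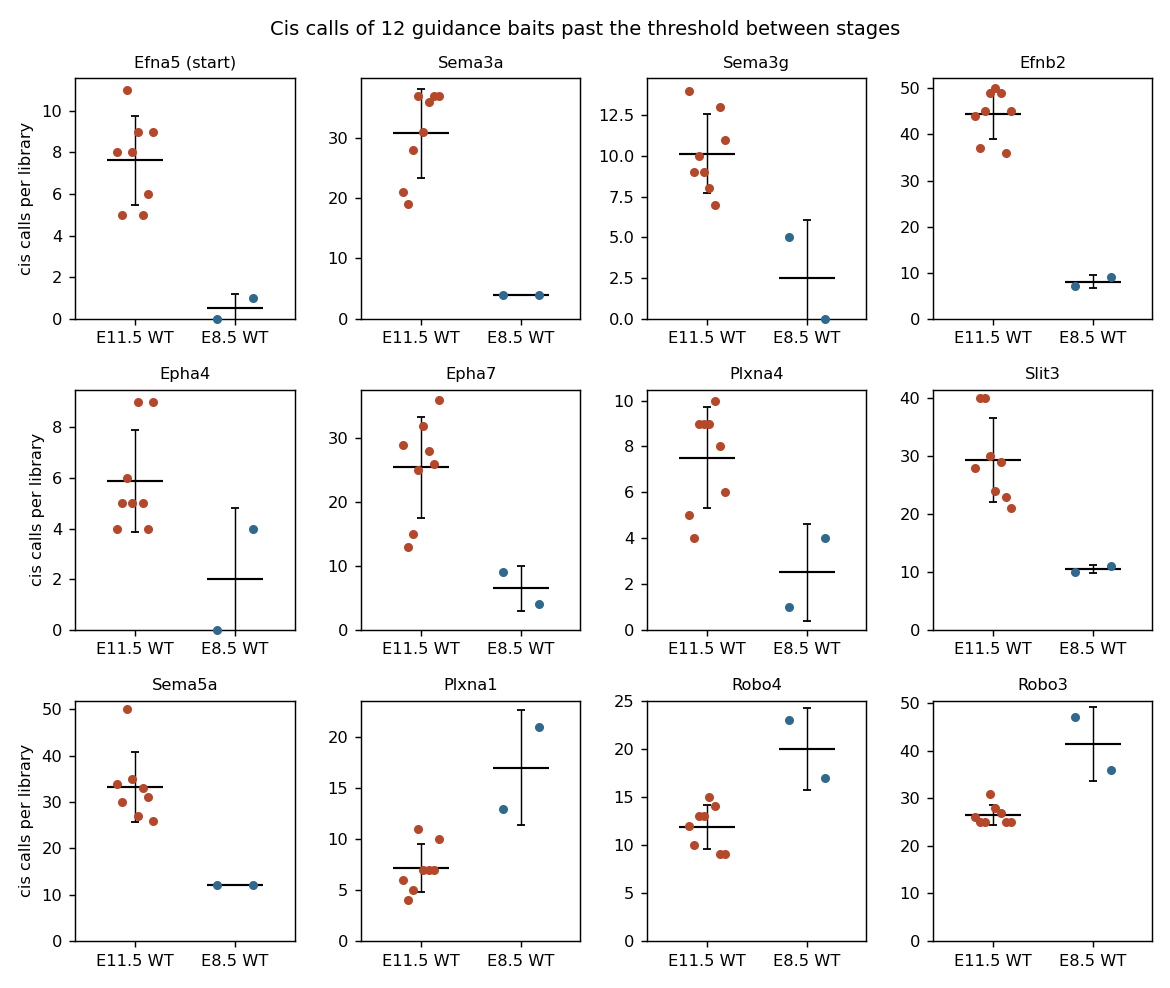
Cis calls per library (y axis, starting at 0) in E11.5 WT (left, 8 libraries) and E8.5 WT (right, 2 libraries) for 12 baits past the threshold; bars are means and error bars SD. Sema3a and Efnb2 sit at 19 to 50 calls at E11.5 and at 4 to 9 at E8.5, whereas Robo3 sits at 25 to 31 and at 36 and 47.

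Leaving out 1 E8.5 library ended 10 of the 20 calls. In such a fit the remaining E8.5 library is assumed to vary like the other groups. Without E8.5 replicate 1 the calls of Efnb3 (adjusted p = 0.279), Epha4, Plxna4 (0.208), Robo3 (0.0967) and Robo4 (0.236) were lost. Without E8.5 replicate 2 those of Efna4 (0.0626), Epha3 (0.199), Plxna1 (0.0641), Sema3d (0.34) and Sema3g were lost. No E11.5 library, left out alone, ended a call, and both Efna5 baits, Efnb2, Epha7, Ephb1, Ephb6, Sema3a, Sema5a, Sema6d and Slit3 passed in all 10 such fits.

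Where the partners lay was examined by joining recurrent partner fragments, those called in at least 6 of 8 libraries of a genotype at E11.5 or in both at E8.5, when within 25 kb of each other. These stretches are descriptions, with no test. Sema3a contacted one 553.3 kb upstream (chr5:12556408-12591601, 35.2 kb long), which overlaps the neighbouring semaphorin gene Sema3d, and one 497.1 kb downstream of the bait (chr5:13615598-13633085), beyond the gene and with no protein-coding gene. The upstream one had 7 or 8 calls in every E11.5 WT library and 2 and 4 at E8.5. The downstream one had 2 to 6 calls and none in either E8.5 library. Just outside it, a fragment at 481.9 kb and another at 510.2 kb were each called in 1 of the 2 E8.5 libraries. Sema5a likewise had an upstream stretch at 628.8 kb (chr15:31598695-31635579, over Atpsckmt and Cct5) with 9 to 11 calls at E11.5 and 1 and 2 at E8.5. Its downstream stretch at 478.4 kb (chr15:32699993-32748577) held 10 or 11 calls at E11.5 and 7 in both E8.5 libraries. The stage difference of Sema5a was larger on its upstream side.

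Efnb2 reached farther. Of its calls in E11.5 WT, 68.5% lay over 2 Mb from the bait, with a main stretch 2087.2 kb downstream of the gene (chr8:6551153-6597438) that held 9 to 13 calls per E11.5 WT library and 3 to 6 at E8.5. A second one at 3369.4 kb (chr8:5286164-5297956) had 2 to 4 calls at E11.5 and 0 at E8.5. Neither overlapped a protein-coding gene. Epha7 contacted the region of Map3k7, 3128.5 kb downstream (chr4:31917644-31965076), with 6 to 9 calls per library at E11.5 and 0 at E8.5. An upstream stretch at 843.5 kb (chr4:27963070-27975708) had 1 or 2 calls at E11.5 and 3 and 4 at E8.5, and one farther upstream at 1884.4 kb (chr4:26923718-26933274) had 2 or 3 at E11.5 and 0 and 1 at E8.5. Slit3 contacted the body of its own gene, 275.7 kb into it (chr11:35339476-35455621), with 16 to 28 calls at E11.5 and 7 to 10 at E8.5.

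**Figure D3:**
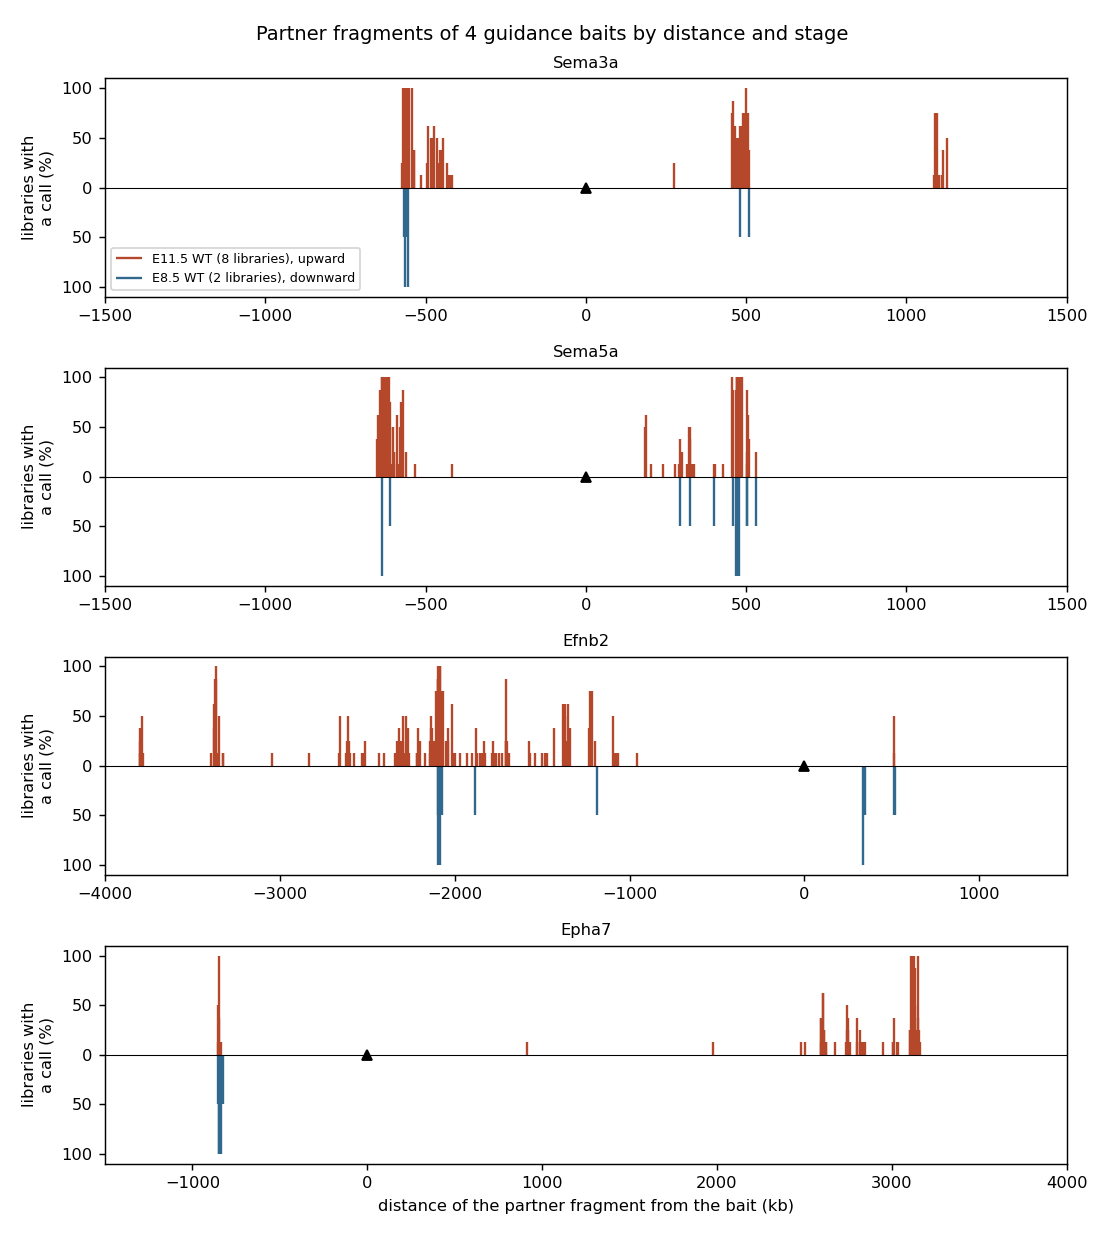
Percent of libraries calling each partner fragment (y axis) by distance from the bait in kb (x axis; triangle at the bait), for E11.5 WT upward (8 libraries) and E8.5 WT downward (2 libraries). Sema3a has partners on both sides, at 553.3 and 497.1 kb, and so has Sema5a, at 628.8 and 478.4 kb. Efnb2 has them at 2087.2 and 3369.4 kb downstream and, at E8.5, also at 332.7 kb upstream, and Epha7 has those at 3128.5 kb at E11.5 only.

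The 2 lower Robo baits are neighbours and shared partners. Robo3 contacted a stretch 167.0 kb upstream (chr9:37525191-37679451, over Esam, Nrgn, Siae, Tbrg1 and other genes) with 13 to 19 calls per E11.5 WT library, against 29 and 34 at E8.5. Robo4 contacted part of it (chr9:37602859-37657631) with a mean of 6.62 ± 0.92 calls at E11.5 (SD, n = 8), against 10 and 11 at E8.5. The promoters of Siae and Spa17 and of Tbrg1 were partners of Robo3 in all 24 libraries, so the stretch was present at every stage and genotype. For Plxna1, 3 fragments 179.0 to 195.0 kb away in Chchd6 were called in both E8.5 libraries and in 0 of the 8 E11.5 WT libraries. Plxnd1 had 6 partners called in both E8.5 libraries and in at most 1 E11.5 WT library, 98.8 to 145.6 kb away on either side, in Ift122 and Tmcc1.

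Across members, 85 cis partners were called in at least 7 of 8 E11.5 WT libraries and in neither E8.5 library. That is 16.7% of the 508 member interactions called in at least 7 E11.5 WT or both E8.5 libraries, against 11.47% of all 96507 such interactions. Conversely 67 (13.2%, against 18.7% of all) were called in both E8.5 libraries and in at most 1 E11.5 WT library. Gains fell on 25 baits, led by Sema5a with 12, Epha7 with 9 and Sema3a with 7. Losses fell on 26, led by Robo3 with 11 and the far end of Sema6b with 9. Partners of a bait that lie side by side are not independent, and the unequal number of libraries makes the criteria unequal, so these shares are descriptions. A total of 93 member interactions were called in all 24 libraries (2.11% of the 4404 called in any, against 1.3% of all 1153700), 12 of them at Robo3, 8 at Ephb3 and 7 at Slit3.

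The Ezh2cKO comparison asked which contacts differ without the Polycomb methyltransferase. Of the 48 tested guidance baits, 5 were higher in Ezh2cKO (10.4%), against 5.38% of all tested baits, and 1 was lower (2.1%), against 5.39%. In both directions together 6 of the 48 were called, against 1115 of all 10344 tested. The members' median log2 change was 0.00 and that of all baits 0.01. Among the baits that did not pass were 2 with large stage differences. Efnb2 had 34, 45.5 and 55 calls in Ezh2cKO (lowest, median, highest of 8), against 36, 45 and 50 in WT, and Sema3a had 21, 26 and 37 against 19, 33.5 and 37 (adjusted p = 0.988 and 0.618). These 2 comparisons use the same E11.5 WT libraries.

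Sema5b, which encodes a transmembrane semaphorin of the same class as Sema5a, changed most. Its bait (chr16:35540445-35546764), whose promoter is printed above, had 5 and 5 calls in FNP Ezh2cKO, against 1 and 3 in FNP WT, and 11 and 5 in Mx Ezh2cKO, against 0 and 1 in Mx WT. In Md it had 14 and 6 calls in Ezh2cKO and 1 and 7 in WT, and in PA2 22 and 27 in Ezh2cKO and 5 and 2 in WT. Ezh2cKO libraries lay above WT in FNP, Mx and PA2 and overlapped in Md, and the log2 change was 2.15 ± 0.34 (adjusted p = 0.000218). At E8.5 it had 4 and 4 calls. A difference of the effect between tissues did not pass the F test for Sema5b (adjusted p = 0.939). The deletion libraries, which carry no Ezh2 knockout label, had 7 to 9 calls in the 36kb and 11 and 8 in the 42kb group.

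Several partners of Sema5b were called in more Ezh2cKO than WT libraries. A fragment inside the gene, 82.8 kb from the bait (chr16:35624103-35628758), was called in 7 of 8 Ezh2cKO and 0 of 8 WT libraries. A pair of fragments in Hspbap1, 267.6 and 274.0 kb away, was called in 6 and 7 of 8 Ezh2cKO libraries and in 0 and 3 of 8 in WT. Upstream, fragments in Hacd2, 432.7 to 490.3 kb away, were called in 3 to 5 Ezh2cKO libraries each and in 0 to 3 WT libraries.

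The 4 other baits that were higher changed less. Efna4, an ephrin-A ligand gene, had 8, 18.5 and 22 calls in Ezh2cKO, against 6, 8 and 10 in WT (log2 change 0.90 ± 0.19, adjusted p = 0.00418). Its partners in both genotypes included the promoters of Chrnb2 and Ube2q1, called in 8 of 8 libraries of each. Nearer ones, the promoter of Flad1 and Lenep at 69.2 kb and that of Pbxip1, Pygo2 and Shc1 at 96.8 kb, were called in 5 and 6 Ezh2cKO libraries and in 0 and 2 WT libraries. Unc5c had 10, 12 and 18 calls in Ezh2cKO and 5, 6.5 and 11 in WT (0.79 ± 0.19, adjusted p = 0.0115). Of these, a stretch 2171.5 kb upstream in Stpg2 (chr3:139279858-139307359) held 3 to 6 in Ezh2cKO and 2 to 5 in WT. Calls over 2 Mb from the Unc5c bait made up 48.1% of its calls in Ezh2cKO and 69.0% in WT (6.25 and 5.0 per library). Nearer fragments in Stpg2, 1943.1 to 1961.0 kb away, were called in 1 to 5 Ezh2cKO libraries each and in 0 to 3 WT libraries. The start of Sema4c, a fragment shared with Fam178b, had 11, 14 and 22 calls in Ezh2cKO and 7, 8.5 and 13 in WT (0.69 ± 0.16, adjusted p = 0.00975). The far-end bait of Sema4c had 14 to 22 calls in Ezh2cKO and 12 to 18 in WT and did not pass. Efna4, Unc5c, the start of Sema4c and Sema5b passed with each of the 16 libraries left out in turn.

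Plxna1 and Sema3g were less firm. Plxna1 had 8 and 8 (FNP), 14 and 16 (Mx), 10 and 8 (Md) and 13 and 13 calls (PA2) in Ezh2cKO, against 6 and 4, 5 and 11, 7 and 7, and 7 and 10 in WT of the same tissues (log2 change 0.60, adjusted p = 0.0313). Its call was kept in 6 of 16 fits without 1 library (those without FNP WT replicate 1, Mx WT replicate 2, PA2 WT replicate 2, FNP Ezh2cKO replicate 2, Mx Ezh2cKO replicate 1 or Md Ezh2cKO replicate 2), with adjusted p from 0.0114 to 0.0913 over the 16, and it was lost with partners that are not baits (0.0512). Sema3g, the only lower bait, had 2, 5 and 7 calls in Ezh2cKO, against 7, 9.5 and 14 in WT, and in each tissue both Ezh2cKO libraries were at or below 7 and both WT libraries at or above 7. The log2 change was -1.13 ± 0.35 (adjusted p = 0.0397), and the call was kept only without FNP WT replicate 2 or PA2 Ezh2cKO replicate 1 among the 16 (0.0357 to 0.0976). Its WT contacts lay 245.5 kb downstream at Mettl6 (chr14:31448448-31475615), with 0 to 5 calls in Ezh2cKO, against 4 to 6 in WT.

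**Figure D4:**
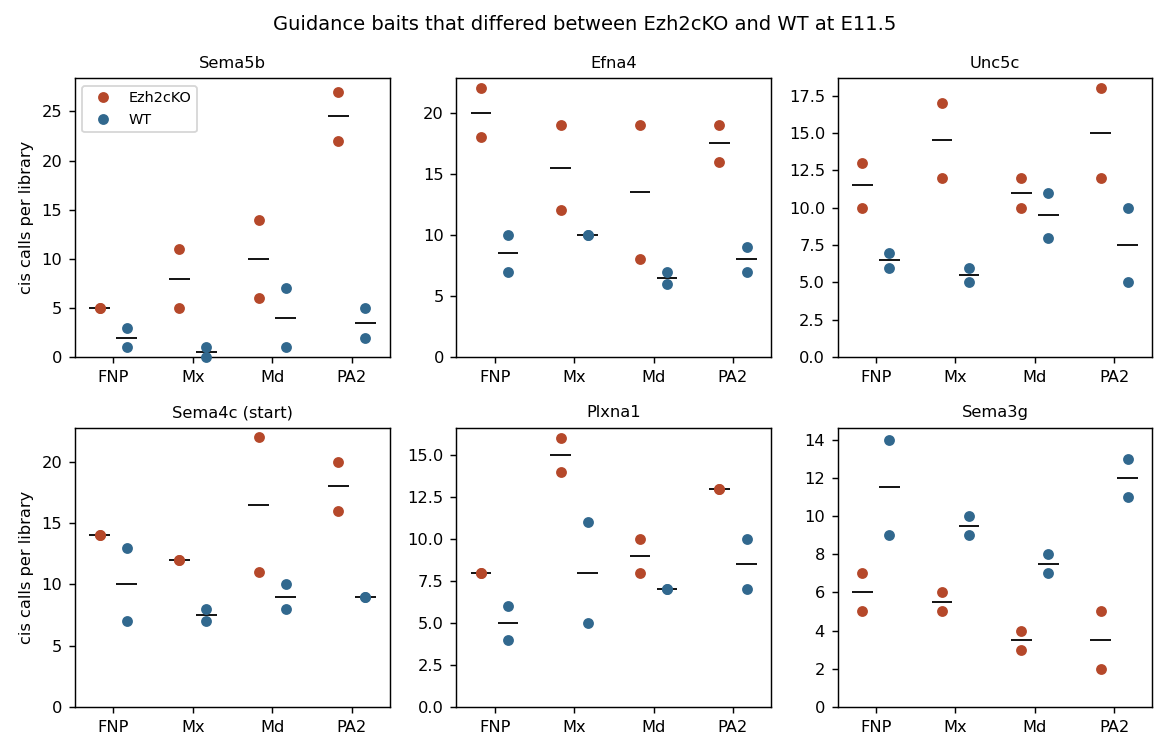
Cis calls per library (y axis, from 0) for the 6 baits past the threshold, by tissue, with Ezh2cKO left of WT, 2 libraries each; bars are means. Sema5b is highest in PA2 Ezh2cKO at 22 and 27 calls, and Sema3g in Ezh2cKO lies at 2 to 7 against 7 to 14 in WT.

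The following 10 ligand and receptor baits were among those that did not pass in Ezh2cKO. Nrp1 had 17 to 28 calls in Ezh2cKO and 12 to 26 in WT, Nrp2 10 to 16 and 7 to 19, Ephb2 13 to 17 and 9 to 17, and Ephb3 25 to 43 and 25 to 33. Slit2 had 11 to 27 calls in Ezh2cKO and 17 to 27 in WT, Slit3 28 to 42 and 21 to 40, and Unc5b 9 to 14 and 9 to 13. Epha4 had 3 to 7 and 4 to 9, Sema3c 5 to 8 and 5 to 9, and Sema3f 4 to 10 and 5 to 10. Adjusted p for these 10 baits ran from 0.254 (Slit3) to 0.858 (Nrp1). The 4 baits of neuron and glia markers summed to 17 to 27 calls in Ezh2cKO and 28 to 42 in E11.5 WT, and 1 of the 2 tested was lower (Isl1, -1.18 on the log2 scale). The marker baits of crest and facial mesenchyme (85 to 150 in Ezh2cKO, 92 to 135 in WT), epithelium (34 to 52, 36 to 49), endothelium (16 to 37, 20 to 47), muscle (59 to 89, 68 to 97) and blood (20 to 29, 21 to 35) had overlapping sums. No marker bait was at 0 in every Ezh2cKO library, and the part of these contacts in the Ezh2cKO results was not tested.

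By single partners, 440 member interactions were called in at least 7 of 8 libraries of a genotype at E11.5. Of these, 6 were gained in Ezh2cKO, called in at least 7 of 8 Ezh2cKO and at most 1 of 8 WT libraries (1.36%, against 1.42% of all 69168 interactions). Only 1 was lost by the opposite criterion (0.227%, against 2.09%). The gains, beside that of Sema5b, were a bait 44.1 kb downstream of Epha2 (8 Ezh2cKO and 1 WT libraries), a fragment 165.6 kb upstream of the far end of Sema4c (8 and 1), one 105.5 kb downstream of Plxnb2 in Trabd (7 and 1), one 842.3 kb upstream of Epha7 (7 and 0) and one inside Plxna4, 259.5 kb from its bait (7 and 0). The Epha7 fragment lies in the nearer upstream stretch of Epha7 described above, which WT also contacted. Fragments at 848.9 and 846.2 kb were called in 8 and 3 of 8 E11.5 WT libraries, and the fragment at 842.3 kb itself in 1 of 2 E8.5 libraries. The loss was a fragment 994.5 kb upstream of Slit2 (chr5:46987517-46992279), called in 1 Ezh2cKO and 7 WT libraries.

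Between chromosomes, only 2 member interactions were called in at least 7 of 8 libraries of a genotype, and both were lost in Ezh2cKO. Of all 1666 such interactions 8.76% were lost and 10.1% gained, with 0 member interactions gained. The contact of Robo3 with chr10:105944032-105950307, which holds no protein-coding gene, was called in 1 Ezh2cKO library, all 4 36kb deletion, neither 42kb deletion, all 8 E11.5 WT and both E8.5 libraries. The contact of Sema6d with the promoter of Prdx2 and Rnaseh2a on chromosome 8 was called in 0 Ezh2cKO and 7 E11.5 WT libraries, and in none of the 6 deletion or 2 E8.5 libraries. By stage, 3 member interactions met the E11.5 or E8.5 criterion. The Sema6d contact was the 1 gained by E11.5 (9.11% of all), and a contact of the Sema6b start with chr8:20956073-20961882, called in both E8.5 libraries and in no other, was the 1 lost (22.3% of all). So few interactions allow no reading of shares.

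The 36kb deletion comparison set Md and PA2 of Hoxa2PTE-36kb-del against Md and PA2 of WT. The member bait nearest to Hoxa2 on chromosome 6 is Epha1, 9.78 Mb away. Of the 48 tested baits 1 was higher (2.1%), against 5.46% of all baits, and 3 were lower (6.2%), against 5.65%. The far end of Sema6b, a fragment shared with Lrg1, had 8 and 12 calls in Md 36kb, against 26 and 31 in Md WT, and 7 and 13 in PA2 36kb, against 34 and 30 in PA2 WT. The groups did not overlap in either tissue (log2 change -1.39 ± 0.23, adjusted p = 0.000885). With partners that are not baits it had 5 to 8 calls in the deletion and 12 to 21 in WT (log2 change -1.14, adjusted p = 0.0301). The bait at the start of Sema6b did not pass. That bait had 4 and 9 calls in Md 36kb, against 10 and 11 in Md WT. In PA2 it had 13 and 22 calls with the 36kb deletion, against 9 and 23 in WT.

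Sema3f and Sema3b, neighbouring genes of secreted semaphorins on chromosome 9, were the other lower baits. Sema3f had 0 and 3 calls in Md 36kb and 5 and 6 in Md WT, and 1 and 5 in PA2 36kb and 10 and 8 in PA2 WT (log2 change -1.75, adjusted p = 0.0237). Its call was kept only without Md 36kb replicate 2 or PA2 36kb replicate 2 among 8 fits without 1 library (0.00139 to 0.127). Counting only partners that are not baits, it had 0 to 2 calls in the deletion and 2 to 4 in WT, too few to test. Sema3b, on a fragment shared with Ifrd2 and Lsmem2, had 2, 7, 2 and 5 calls in the deletion, against 18, 19, 14 and 8 in WT (-1.66 ± 0.36, adjusted p = 0.00637). With partners that are not baits it had 1 to 4 calls in the deletion and 4 to 14 in WT, a log2 change of -1.79 that did not pass (adjusted p = 0.122). The contact between Sema3b and Sema3f, 108.5 kb apart, was called in 2 of 4 36kb and 1 of 2 42kb deletion libraries, in 8 of 8 Ezh2cKO, 8 of 8 E11.5 WT and both E8.5 libraries. Slit3 was the higher bait, with 28, 42, 30 and 24 calls in the deletion and 24, 29, 23 and 21 in WT (log2 change 0.52, adjusted p = 0.0481). That call was lost in 6 of 8 fits without 1 library (all but those without Md 36kb replicate 1 or PA2 36kb replicate 2; 0.0288 to 0.188) and with partners that are not baits (0.0603).

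In the 42kb deletion of PA2, 0 of 48 tested baits passed limma's threshold (lowest adjusted p = 0.216), and 3 had an unadjusted p under 0.05. Over all baits, 0.822% were higher and 1.02% lower. The far end of Sema6b had 29 and 16 calls, against 34 and 30 in PA2 WT, Sema3f 7 and 4 against 10 and 8, Sema3b 11 and 4 against 14 and 8, and Efnb2 32 and 43 against 36 and 45. Epha4 had 10 and 12 calls in the 42kb deletion and 4 and 9 in WT (adjusted p = 0.512). All deletion comparisons share WT libraries with the comparisons above.

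The other crest receptors and ligands had these calls in the deletions. Nrp1 had 11 to 20 calls in the 36kb deletion and 14 and 18 in the 42kb deletion, against 15 to 26 in WT Md and PA2. Nrp2 had 13 to 18 and 21 and 9, against 13 to 19 in WT, and Ephb2 had 8 to 13 and 12 and 15, against 12 to 17. Ephb3 had 14 to 24 calls in the 36kb deletion and 31 and 32 in the 42kb deletion, against 25 to 32 in WT, and the change in the 36kb comparison was -0.29 on the log2 scale (adjusted p = 0.284). Slit2 had 11 to 24 and 14 and 12, against 17 to 22 in WT, Unc5b 9 to 11 and 9 and 10, against 9 to 11, and Sema3a 26 to 43 and 30 and 35, against 31 to 37. Relative to the library totals, the 36kb values of these 7 baits overlapped those of WT. PA2 WT alone had 19 and 21 calls for Nrp1, 22 and 17 for Slit2, 37 and 37 for Sema3a and 26 and 30 for Ephb3, and none of these 4 baits passed in the 42kb comparison (adjusted p between 0.549 and 0.944). The 5 muscle marker baits summed to 57 and 58 calls as lowest and highest in the 36kb deletion, against 78 and 97 in WT Md and PA2, and 1 of the 3 tested was lower (Des, -1.38 on the log2 scale). The 5 epithelial marker baits summed to 27 to 38 in the 36kb deletion, against 39 to 49, and 0 of the 2 tested were called. Of the crest and facial mesenchyme baits, with 68 to 121 against 92 to 121, 1 of the 5 tested was higher (Twist1, 0.57). In the 42kb deletion the 3 endothelial marker baits summed to 13 and 24 calls, against 37 and 47 in PA2 WT, and 1 of the 2 tested was lower (Cdh5, -1.84). The crest baits summed to 79 and 87 against 108 and 109, and 0 of the 5 tested were called. Like all marker sums here, these are not scaled to the library. Cis calls per library were 136997 to 149469 in the 36kb deletion, 147696 and 152360 in the 42kb deletion and 164459 to 168276 in WT Md and PA2. No marker bait was at 0 in every library of a deletion, and the part of these contacts in the deletion results was not tested.

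**Figure D5:**
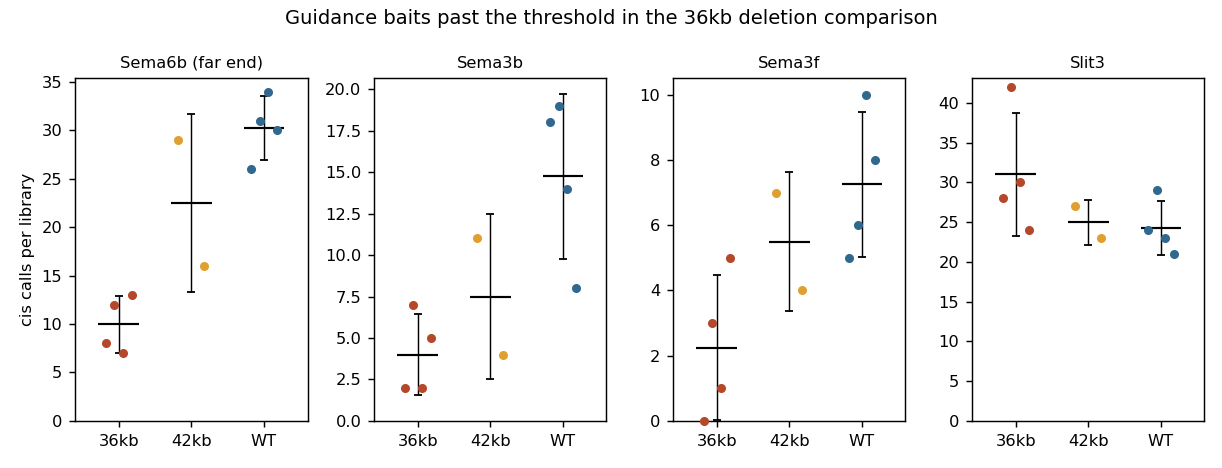
Cis calls per library (y axis, from 0) in the 36kb deletion (Md and PA2, 4 libraries), the 42kb deletion (PA2, 2 libraries) and WT (Md and PA2 at E11.5, 4 libraries) for the 4 baits past the threshold in the 36kb comparison; bars are means, error bars SD. The far end of Sema6b lies at 7 to 13 calls with the 36kb deletion, against 26 to 34 in WT.

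Contacts between members were rare. In cis, 10 pairs of member baits were called in any library. Beside Sema3b and Sema3f, the start and far end of Sema6b, 16.9 kb apart, met in 5 of 8 Ezh2cKO, none of the 4 36kb, 1 of 2 42kb, 8 of 8 E11.5 WT and both E8.5 libraries. Epha1 and Ephb6, 767.9 kb apart, met in 6 of 8 Ezh2cKO, 2 of 6 deletion, 4 of 8 E11.5 WT and neither E8.5 library. The starts and far ends of Efna1 and of Ntn5 (13.0 and 11.7 kb apart) were called in all 6 deletion libraries and in none of the other 18, the pattern of the 1840 interactions described above.

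Differences between the 4 WT tissues at E11.5 were not detected for these baits. By limma's F test 0 of 48 passed, against 0.271% of all baits, with 5 at an unadjusted p under 0.05 and a lowest adjusted p of 0.305. A difference of the Ezh2cKO effect between tissues passed for 0 of 48, against 0.00967% of all baits, with 1 at an unadjusted p under 0.05 and a lowest adjusted p of 0.58. With 2 libraries per tissue and genotype, small differences would not be seen.

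A list of 55 genes that act downstream of or beside these receptors (cytoplasmic mediators, adhesion molecules and Flrt proteins) had 57 baits, 31 of them tested. At E11.5 against E8.5, 8 of the 31 were higher and 4 lower, against 18.6% and 10.3% of all baits, with a median log2 change of -0.01. Flrt2, a transmembrane protein that binds the netrin receptor Unc5, rose by 4.50 on the log2 scale (adjusted p = 2.5e-10). Its bait had a mean of 20.75 calls at E11.5 in WT and 0.5 at E8.5. The size of that change therefore depends on the 0.5 added to each count. The netrin and Rgm receptor gene Neo1 rose by 0.88 (adjusted p = 0.00608), whereas Srgap3, which acts downstream of Slit and Robo, fell by 2.49 (adjusted p = 0.000989) and Nrcam, an adhesion molecule, by 2.29 (adjusted p = 5.01e-05). In Ezh2cKO, Plcg1 (0.54, adjusted p = 0.000689) and Srgap1 (0.37, adjusted p = 0.0201) were higher and Farp2 (-0.60, adjusted p = 0.0311) lower, against 5.38% and 5.39% of all baits. In the 36kb deletion 5 of the 31 were higher and 2 lower, against 5.46% and 5.65% of all baits, and in the 42kb deletion 1 was higher (Nck2) and 1 lower (Draxin), against 0.822% and 1.02%.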

How the data were processed

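Promoter capture Hi-C was measured in 24 libraries, 2 in each of 12 groups taken from the labels. One PA2 library of the 36kb deletion (replicate 2) carries the title of a different sample as its genotype entry, and was grouped by its own title. Each deposited list holds pairs of fragments called by the authors, with a CHiCAGO score of at least 5 per pair. Builds GRCm38 and mm10 are named in the submitters' processing notes, and the sources used here give neither aligner nor caller version. Read depth is unknown, so the number of calls limits the precision. Gene ends came from RefSeq (GRCm38.p6). Cis calls that list a bait in either position were counted, where calls in the first position had been planned, because libraries list pairs of 2 baits in different orders. Counts plus 0.5 over the library's cis total were taken to log2 and fitted over 12 group means with limma 3.58.1 in R 4.3.3 (eBayes with trend), with Benjamini-Hochberg adjustment over the 10344 baits that averaged 5 or more calls. The fit was tested on simulated data. P-values measure the spread between libraries, which may be technical, and each library carries its own batch label, so batch could not be tested. Members and lists were chosen with earlier results of these data known. Named baits were the 12 largest changes per direction past the threshold, 20 crest guidance genes regardless of their values, and partners called in at least 7 of 8 libraries of a genotype and at most 1 of the other; further called baits and Efna2 were named after their values were seen. The titles' replicate numbers did not pair samples: deviations of same-numbered libraries correlated at -0.086 to 0.158 over 66 group pairs, 1 of them over 0.1. Alternatives were another added count, scaling, minimum, score, calling position, samples in the fit and prior, a replicate block, non-bait partners (chosen after seeing the data) and each library left out.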

Additional observations from a re-analysis of the deposited data

How the results depend on the processing

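Of 1414 values of single baits under the alternatives, 1352 stayed on their side of the threshold, 58 were no longer past it and 4 newly passed it. No called value changed sign, and 47 values that were not called did. At a score of at least 7, 24 member baits were left to test. There, 0 were called in Ezh2cKO, since none of the 6 called baits reached the minimum, and 2 in the 36kb deletion, against 6 and 4. With non-bait partners 2 were called in the 36kb deletion. The cause was not tested. A mean of at least 1 call gave 1 member in the 42kb deletion, against 0. Partners lost or gained in Ezh2cKO, 7 in all, came to 51 at 6 or more against 2 or fewer of 8 libraries (32 gained, 19 lost) and to 3 at a score of at least 7. Leaving out each library gave 4 to 6 called members in Ezh2cKO, 15 to 21 at E11.5 against E8.5, 2 to 5 in the 36kb deletion and 0 in the 42kb deletion and both F tests. The 36kb count was 2 without Md WT replicate 1, PA2 WT replicate 1, PA2 WT replicate 2 or PA2 36kb replicate 1.

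Over all baits, a score of at least 7 lowered the calls to 567 in Ezh2cKO (from 1115), to 1543 at E11.5 against E8.5 (from 2991) and to 524 in the 36kb deletion (from 1149), where non-bait partners gave 333 and a fit of the compared groups alone 694. In the 42kb deletion it gave 108, non-bait partners 95 and the compared groups alone 81 (from 190), and for tissues it gave 9, a mean of at least 1 call 18, the compared groups alone 15 and a prior without trend 13 (from 28). Leaving out 1 library gave 1668 to 2860 at E11.5 against E8.5, 594 to 1300 in the 36kb deletion, 29 to 122 in the 42kb deletion and 7 to 25 for tissues. For the effect between tissues the count was 0 to 3 over all settings (from 1). With the replicate number as a block, 6, 21, 3, 0, 0 and 0 members were called in Ezh2cKO, E11.5 against E8.5, the 36kb deletion, the 42kb deletion and the F tests for tissue and for the effect between tissues. The block ended the call of Slit3 in the 36kb deletion. That call also ended with median centring, a mean of at least 1 call, first-position calls, the compared groups alone and a prior without trend. The prior without trend also ended the call of Sema3g in Ezh2cKO. Unc5b passed at E11.5 against E8.5 at a score of at least 7 (-1.04, adjusted p = 0.0461). The 23 baits with too few calls were not tested.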
